A study of Homo sapiens with 29 samples.

Results

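Mitochondria carry their own ribosome, the mitoribosome, which translates the few proteins encoded by mitochondrial DNA, all of them parts of the oxidative phosphorylation machinery. Its RNAs come from the mitochondrial genome, whereas its proteins are encoded in the nucleus, made in the cytosol and imported. About this shared task the proteins fall into a small subunit (MRPS genes), which decodes the mRNA, and a large subunit (MRPL genes), which forms the peptide bond. Some have homologues in bacterial ribosomes and others are specific to mitochondria. The mRNAs of these genes were followed here through chromosome missegregation, micronucleus formation and micronucleus rupture.

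The members were all protein-coding genes whose symbol begins with MRPL or MRPS and a number. In the annotation 78 genes had such a symbol, and 77 of them were in each of the 3 count tables, against 10577, 10594 and 9461 genes in all. MRPL45 was in none of the 3 tables and was not analysed here. By role, 31 of the 77 were large subunit proteins with a bacterial homologue, 19 were large subunit proteins specific to mitochondria, 16 were small subunit proteins with a bacterial homologue, and 10 were specific to the mitochondrial small subunit. MRPS18A and MRPS30, despite their names, sit in the large subunit and were counted there. The remaining gene, MRPS36 (also named KGD4), has the symbol but belongs to the alpha-ketoglutarate dehydrogenase complex and is not a mitoribosome subunit. Leaving it out moved the median of the members by little in any comparison (-0.076, -0.16 and -0.050 on the log2 scale without it, and -0.076, -0.16 and -0.047 with it).

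All libraries came from RPE1 cells, a human retinal pigment epithelium line immortalised with telomerase (hTERT), here carrying a photoconvertible Dendra2 reporter in the nucleus and a fluorescent histone. Cells were picked by image analysis, marked with a 200 or 800 ms pulse of UV light and sorted by the colour of Dendra2. The 6 groups were DMSO, the vehicle control (n = 4), Mps1i, cells treated with the Mps1 kinase inhibitor BAY1217389 at 100 nM for 24 h and sorted without regard to micronuclei (n = 4), MN- and MN+, inhibitor-treated cells without or with a micronucleus (n = 4 each), and rupture- and rupture+, inhibitor-treated micronucleated cells with intact micronuclei or at least 1 ruptured one (n = 3 each). Mps1 is a kinase of the spindle assembly checkpoint, and its inhibition makes chromosomes missegregate, so every group but DMSO carried the inhibitor. The labels give rupture- and rupture+ cells a further 20 h in 10 µM RO-3306, a Cdk1 inhibitor, before it. The study's methods name a Cdk4/6 inhibitor for this synchronisation. Its general sorting outline also puts cells in 10 µM RO-3306 from 1 h before imaging. That outline sets no group apart, so DMSO cells may have had RO-3306 too. The libraries of each experiment share 1 date in their titles, called a day here. There were 2 experiments in the Mps1i and DMSO table, 2 in the MN table and 3 in the rupture table. In the rupture table all rupture- libraries had the 800 ms pulse and all rupture+ libraries the 200 ms pulse, so rupture and pulse length cannot be told apart there. Per the study, the 200 and 800 ms libraries of a day in the Mps1i and DMSO table are technical replicates, so the 4 libraries of each group stand for 2 experiments. These are sorted pools of 1 cell line, and nothing in the labels gives separate clones. By the study's own scoring, its classifier put some nuclei in the wrong class. The MN-, MN+, rupture- and rupture+ pools were therefore enriched and not pure.

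Total counts ran from 47919780 to 145242185 per library, and the members took 0.491% to 0.586% of them. Of 7 genes known from this line, 6 were in each table, whereas 8 of 10 genes of differentiated retinal pigment epithelium, RPE65 among them, and all 10 markers of other cell types were not among the listed genes. Only genes with at least 700 counts in 2 or more samples were deposited, and the 77 members are those listed after that filter.

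The mRNA level of the members, read as CPM (counts scaled to a common library size) divided by the kilobases of the canonical transcript, spanned from 5.71 for MRPL42 to 237 for MRPL51 as the median over the 22 libraries. The median member stood at 46.9, against 14.7 over the 9213 genes of all 3 tables that had a length. The highest levels after MRPL51, a mitochondria-specific large subunit protein, were those of MRPL33 at 168 and MRPL20 at 143. The lowest above MRPL42 were MRPL19 at 7.46 and MRPS33 at 7.58. The canonical transcript of MRPL42 is 15557 bases long, so its level per length depends on that choice of transcript. MRPL51 reached 252 ± 12.1 in DMSO, 236 ± 4.32 in Mps1i, 253 ± 20.3 in MN-, 222 ± 12.6 in MN+, 223 ± 25.3 in rupture- and 211 ± 31.7 in rupture+ (SD, n = 4 or 3), and neighbours in the order of these means differed by less than their SDs together. In all 6 groups the mean of MRPL51 was above those of MRPL33 and MRPL20. The 50 large subunit members had a median level of 54.8 and the 26 small subunit members one of 41.4. Levels across tables rest on one scaling of the genes that all 3 tables list.

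**Figure D1:**
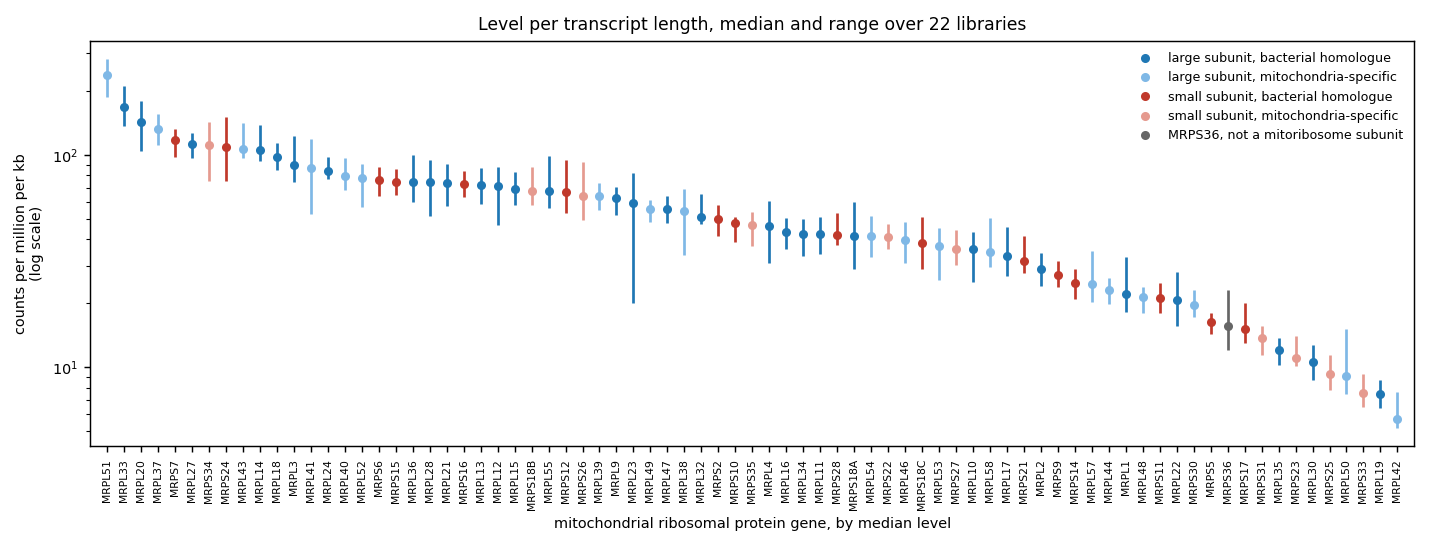
Level of each of the 77 genes in CPM per kilobase of canonical transcript (log scale), as the median (point) and the lowest to highest of 22 libraries (line), coloured by role. Levels fall from 237 for MRPL51 to 5.71 for MRPL42, and MRPL23 has the longest line.

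The members varied between libraries by less than the median gene did. The highest library exceeded the lowest by 1.47 times for the median member and by 1.66 times for the median gene of all 3 tables. Within groups the median SD of a member on the log2 scale was 0.071 in the Mps1i and DMSO table, 0.12 in the MN table and 0.13 in the rupture table, where the values over all genes were 0.091, 0.16 and 0.13. The most variable members within groups were MRPL23 in the first and last table (0.16 and 0.49) and MRPL41 in the MN table (0.38). As a share of all counts the members took 0.539% ± 0.0167 in DMSO and 0.517% ± 0.0137 in Mps1i (SD, n = 4 each). They took 0.551% ± 0.0243 in MN- and 0.507% ± 0.0154 in MN+ (n = 4 each), and 0.542% ± 0.0334 in rupture- and 0.529% ± 0.0194 in rupture+ (n = 3 each). The MN+ libraries, from 0.491% to 0.521%, lay below all MN- libraries, from 0.532% to 0.586%, whereas the ranges of the other pairs of groups overlapped. In bulk RNA of sorted cells, fewer cells of a kind and less RNA per cell cannot be told apart.

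Promoter sequence was a property that the rule did not use. RefSeq windows of 250 bases before and 50 bases after the start (GRCh38.p14) were held for 69 of the 78 genes, matched by symbol and 1 per gene; MRPL2, MRPL10, MRPL13, MRPL15, MRPL21, MRPL23, MRPL35, MRPS28 and MRPS36 had none. Short motifs of 4 factors known from housekeeping and nuclear-encoded mitochondrial genes were searched on both strands. The ETS motif CCGGAAG was in 29 of 69 windows (42%), against 21.7% of 8401 protein-coding genes of the Mps1i and DMSO table. The YY1 motif AAGATGGCG was in 13 windows (18.8%), against 4.58%. The NRF1 motif GCATGCGC was in 6 windows (8.7%), against 6.17%, and the SP1 motif GGGGCGGGG in 16 (23.2%), against 28.1%. Of the 69 windows, 48 held at least 1 of the motifs (69.6%, against 50.4%). These are matches of letters, with no test of the difference and no reading of binding. The 250 bases before the start are shown for MRPL12 and MRPL33, which fell in Mps1i cells, and for MRPS18A, whose window held 3 of the motifs, the ETS and SP1 matches among the bases shown. Capitals mark motif matches, and the strand of each gene is given after its window.

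MRPL12 (chr17:81703117-81703366, plus strand): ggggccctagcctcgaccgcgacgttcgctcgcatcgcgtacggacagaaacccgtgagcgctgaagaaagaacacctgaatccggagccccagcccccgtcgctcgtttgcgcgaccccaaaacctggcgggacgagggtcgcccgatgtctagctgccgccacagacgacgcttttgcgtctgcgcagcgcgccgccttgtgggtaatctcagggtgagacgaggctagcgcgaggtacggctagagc
MRPL33 (chr2:27771469-27771718, plus strand): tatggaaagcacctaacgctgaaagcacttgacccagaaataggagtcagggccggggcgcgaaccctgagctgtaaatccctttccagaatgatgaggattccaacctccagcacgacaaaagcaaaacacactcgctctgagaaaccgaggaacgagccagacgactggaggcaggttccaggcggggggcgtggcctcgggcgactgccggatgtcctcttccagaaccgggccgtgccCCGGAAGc
MRPS18A (chr6:43687792-43688041, minus strand): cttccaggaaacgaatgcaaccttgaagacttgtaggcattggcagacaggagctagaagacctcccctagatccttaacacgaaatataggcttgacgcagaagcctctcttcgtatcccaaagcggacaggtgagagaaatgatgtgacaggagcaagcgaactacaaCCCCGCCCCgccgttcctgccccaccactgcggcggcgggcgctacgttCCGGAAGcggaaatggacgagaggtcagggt

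The ETS match of MRPL33 began 8 bases before its start and that of MRPS18A 31 bases before. The SP1 match of MRPS18A lay on the other strand and began 80 bases before the start. No match was in these letters for MRPL12. The members were also often paired head to head with another gene. Of the 77, 17 (22.1%) had a protein-coding gene on the other strand that started within 1000 bases and ran away from them, against 12.4% of the 10112 protein-coding genes of the same table. MRPL46 and MRPS11 are such neighbours of each other on chromosome 15, with starts 63 bases apart, and the start of MRPL49 lies 6 bases from that of FAU, which encodes a ubiquitin-like protein fused to a ribosomal protein.

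The first comparison asked how cells with missegregated chromosomes differ from controls. After Mps1 inhibition most of the members were a little lower, and few passed the test. MRPS16, MRPL12, MRPL33 and MRPL35 fell and MRPL49 rose, with log2 fold changes between -0.20 and 0.17. That is 1 of 77 called higher where 6.32% of all genes were, and 4 of 77 called lower where 5.76% of all genes were (edgeR quasi-likelihood test, adjusted p under 0.05), so a call was no more frequent among the members than among all genes. With the experiment as a block 1 was called higher and 10 lower (13%), where all genes had 12.7% higher and 11.8% lower. With the technical replicates of a day summed and the same block, 1 residual degree of freedom was left. This edgeR fit called no member in either direction, where 4.7% of all genes were higher and 4.04% lower. In it 1 member higher and 9 lower had an unadjusted p under 0.05, and the share of all genes at that level is not given here.

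MRPS16, a small subunit protein with a bacterial homologue that is needed for the subunit to assemble (chromosome 10, 73248843 to 73252693, minus strand, GRCh38 as all positions here), stood at 188, 194, 185 and 191 CPM in the 4 DMSO libraries and at 172, 173, 164 and 171 CPM in the 4 Mps1i libraries. All 4 Mps1i libraries lay below all 4 DMSO libraries. Its log2 fold change was -0.15 (SE 0.035, adjusted p = 0.0185, lower in 4 of 4 pairs of the same day and pulse).

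MRPL12, the stalk protein of the large subunit that also binds the mitochondrial RNA polymerase (chromosome 17, 81703367 to 81707517, plus strand), stood at 74.7, 76.9, 74.4 and 73.4 CPM in DMSO and at 71.7, 63.9, 65.2 and 64.2 CPM in Mps1i. The groups did not overlap, and the 200 ms Mps1i library of experiment 1 lay closest to DMSO. The log2 fold change was -0.18 (SE 0.046, adjusted p = 0.0317).

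MRPL33, homologue of a small protein of the bacterial large subunit (chromosome 2, 27771717 to 27988087, plus strand), stood at 81.2, 92.7, 88 and 84.9 CPM in DMSO and at 82, 73.9, 74 and 72.5 CPM in Mps1i. Here 1 Mps1i library lay above the lowest DMSO library. The log2 fold change of -0.20 (SE 0.054, adjusted p = 0.0364) became -0.11 with offsets for transcript length and GC content, and the adjusted p then was 0.0748. Its gene body overlaps RBKS on the other strand.

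MRPL35, another large subunit protein with a bacterial homologue (chromosome 2, 86199355 to 86213790, plus strand), stood at 48.4, 48.8, 47.8 and 47.4 CPM in DMSO and at 42.9, 43.2, 44.4 and 43.8 CPM in Mps1i. The groups were narrow and apart. The log2 fold change was -0.14 (SE 0.041, adjusted p = 0.0466). MRPL35 has 4 pseudogenes named for it and MRPS16 has 3, and reads that such copies share could be assigned to either.

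MRPL49, a mitochondria-specific large subunit protein (chromosome 11, 65122183 to 65127371, plus strand), was the member that rose. It stood at 110, 105, 104 and 101 CPM in DMSO and at 122, 123, 113 and 115 CPM in Mps1i, so that every Mps1i library was above every DMSO library. The log2 fold change was 0.17 (SE 0.043, adjusted p = 0.029). Its head-to-head neighbour FAU had a log2 fold change of -0.073 (SE 0.046, adjusted p = 0.33).

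**Figure D2:**
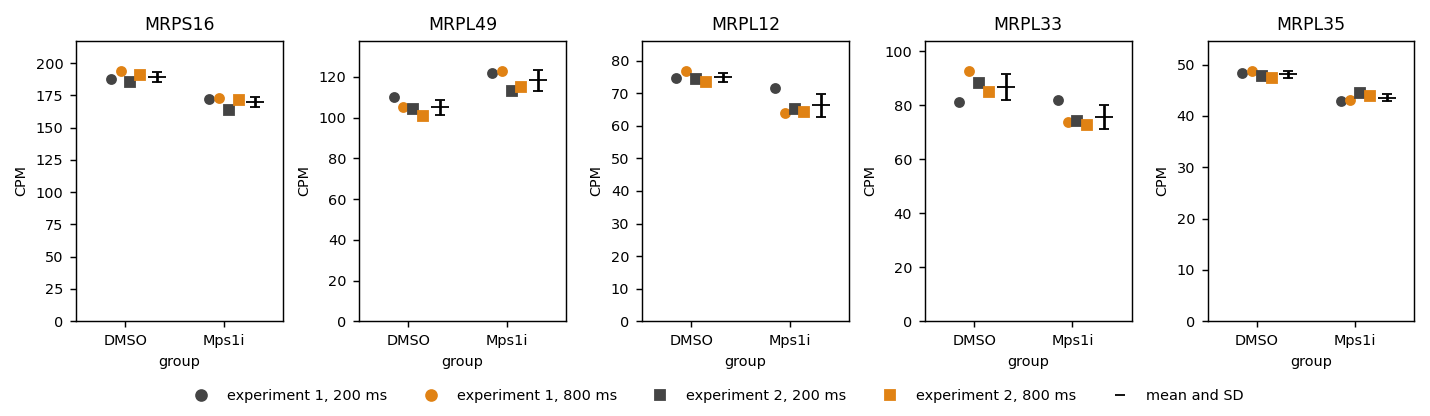
CPM of the 5 genes that passed the test, in each DMSO and Mps1i library, with experiment as symbol and pulse length as colour; bars are the mean and SD of 4 libraries and axes start at 0. MRPS16, MRPL12, MRPL33 and MRPL35 are lower and MRPL49 is higher in Mps1i, with overlap between groups only for MRPL33.

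Leaving out 1 library at a time gave 0 or 1 call higher and 0 to 3 calls lower. In these fits 3.58% to 5.89% of all genes were called higher and 3.2% to 5.63% lower. The call of MRPS16 was lost without the 200 ms Mps1i or the 800 ms DMSO library of experiment 2 (adjusted p = 0.0663 and 0.0528). That of MRPL49 stayed only when the omitted library was a 200 ms or 800 ms Mps1i library of experiment 2 or the 200 ms DMSO library of experiment 1 (otherwise 0.0556 to 0.0838). That of MRPL12 was kept only without the 200 ms Mps1i library of experiment 1, that of MRPL33 only without that library or the 200 ms DMSO library of the same experiment, and that of MRPL35 was lost without any of the 8. Without experiment 1, 15 members were called lower (19.5%, against 12.4% of all genes) and 1 higher (1.3%, against 14%). Without experiment 2 edgeR called none, where 2.69% of all genes were higher and 2.27% lower. In that fit 4 members lower and 2 higher had an unadjusted p under 0.05, with the share of all genes at that level not given here. Across all 77 members the median log2 fold change was -0.076, and 69 were below 0 (89.6%), whereas over all genes the median was -0.0038 and 51% were below 0. Other genes with transcripts under 1000 bases were also below 0 in the median, at -0.10, -0.061 and -0.037 from low to high GC content, where the members of the same GC ranges had -0.076, -0.081 and -0.069. Groups did not overlap for 10 members, which is 13% of the members against 19.3% of all genes in either direction. Of the 77 members 9 were lower without overlap, as were 9.23% of all genes.

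Each role held few calls. Of the 31 large subunit members with a bacterial homologue, 3 fell and none rose (median -0.081). Of the 19 mitochondria-specific large subunit members 1 rose (median -0.074), with MRPL58, a peptidyl-tRNA hydrolase built into the subunit, at -0.12 (SE 0.052, adjusted p = 0.168). Of the 16 small subunit members with a bacterial homologue 1 fell (median -0.077), and of the 10 specific to mitochondria none was called (median -0.058, all 10 below 0). The most negative value was that of MRPL1 at -0.21 (SE 0.076, adjusted p = 0.0922), followed by MRPL53 at -0.20 (SE 0.084, adjusted p = 0.14) and, after MRPL33, MRPS17 at -0.19 (SE 0.065, adjusted p = 0.0766). With the block MRPL1 and MRPS17 passed, at adjusted p = 0.0366 and 0.0224, but not with the technical replicates summed as well (0.108 and 0.116). Above 0 after MRPL49 were MRPS7, near the decoding site, at 0.080 (SE 0.050, adjusted p = 0.32), MRPL10, a stalk protein, at 0.060 (SE 0.046, adjusted p = 0.426) and MRPL46 at 0.039 (SE 0.070, adjusted p = 0.757). The median SE was 0.054. The 95% interval of the fold change lay inside 1.5-fold either way for all 77 members and inside 1.2-fold for 65. These intervals take the 4 libraries of each group as independent, though they stand for 2 experiments, so they may be too narrow.

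Other genes of the same pathway gave both directions. Of 5 mitoribosome subunits with other symbols CHCHD1 fell, from 49.1 ± 2.62 to 40.5 ± 1.77 CPM (log2 fold change -0.28, SE 0.054, adjusted p = 0.00865), and DAP3, a GTP-binding protein of the small subunit, rose from 105 ± 4.63 to 117 ± 1.11 CPM (0.16, SE 0.040, adjusted p = 0.0285; SD, n = 4 each). Of 27 genes of mitoribosome assembly and rRNA modification 2 rose and 2 fell. TRUB2, a pseudouridine synthase, and NGRN, which binds the large rRNA, rose by 0.20 and 0.15 (adjusted p = 0.0288 and 0.0357), whereas MALSU1, an assembly factor of the large subunit, had -0.15 (adjusted p = 0.0317). The fourth call, MTERF3 at -0.18 (adjusted p = 0.042), is named after its value was seen. None of 18 translation factors passed, where SLIRP had the smallest p (-0.16, adjusted p = 0.071, and 0.0405 with the block). Of 13 genes of mitochondrial transcription and RNA processing TFAM, which packs mitochondrial DNA and starts its transcription, had -0.19 (adjusted p = 0.0353) and SUPV3L1, an RNA helicase, 0.15 (adjusted p = 0.031).

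The second comparison asked what a micronucleus adds among inhibitor-treated cells. No member passed the test between MN+ and MN-, and neither did any gene (0% of 10594 called), although 75 of the 77 members were below 0. The median of the members was -0.16 and that of all genes was -0.00048, with 97.4% of members and 50.2% of all genes below 0. At an unadjusted p under 0.05 there were 18 members, all lower (23.4% of them, against 7.45% of all genes). That number depended on the setting of the edgeR fit. It was 36 with the experiment as a block, 6 with offsets for transcript length and GC content, and 13 with both, all lower. The share of all genes at that level in these fits is not given here, so the counts cannot be set against it. DESeq2 and limma-voom called no member either, nor did edgeR with the block, where the smallest adjusted p of a member was 0.206. With the 2 pulses of a day summed and the experiment as a block, a fit with 1 residual degree of freedom, 12 members were called lower (15.6%), MRPS12 among them (adjusted p = 0.0025), where 3.37% of all genes were called lower and 4.39% higher. Groups did not overlap for 12 members, all lower (15.6%, against 5.57% of all genes in either direction and 3.14% lower).

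MRPS12, the homologue of the bacterial decoding-site protein S12, had the most negative value. It stood at 89.9, 63.3, 69.3 and 70.6 CPM in MN- and at 51, 57.2, 63.5 and 61.7 CPM in MN+. The 200 ms MN- library of experiment 1 was the highest, and 1 MN+ library lay above the lowest MN- library. The log2 fold change was -0.33 (SE 0.12, adjusted p = 0.641).

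MRPL58 stood at 45, 33.8, 33.1 and 32.4 CPM in MN- and at 26.6, 30.2, 30.4 and 29.9 CPM in MN+. The groups did not overlap, with the highest and the lowest value both in 200 ms libraries of experiment 1 (log2 fold change -0.30, SE 0.12, adjusted p = 0.641). MRPL41 (-0.29, SE 0.21), MRPL12 (-0.28, SE 0.17) and MRPL4 (-0.28, SE 0.15), which lines the exit tunnel, came next, with adjusted p from 0.641 to 0.691.

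Above 0 stood MRPL35 at 0.049 (SE 0.078, adjusted p = 0.863) and MRPL42 at 0.019 (SE 0.13, adjusted p = 0.971). MRPL35, called lower in the first comparison, thus had 38.3, 38.2, 42.6 and 41.5 CPM in MN- and 39.2, 43.6, 43 and 40.4 CPM in MN+, which overlap. MRPS2 (-0.24, SE 0.090), MRPL11, a stalk base protein (-0.22, SE 0.084), and MRPS15 (-0.19, SE 0.073) also had unadjusted p under 0.05, while MRPS22, MRPS27 and MRPL44, an RNase III-like protein, lay between -0.073 and -0.093. By role the medians were -0.16 for large subunit members with a bacterial homologue, -0.18 for those specific to mitochondria, -0.15 for small subunit members with a homologue and -0.094 for those specific to mitochondria.

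**Figure D3:**
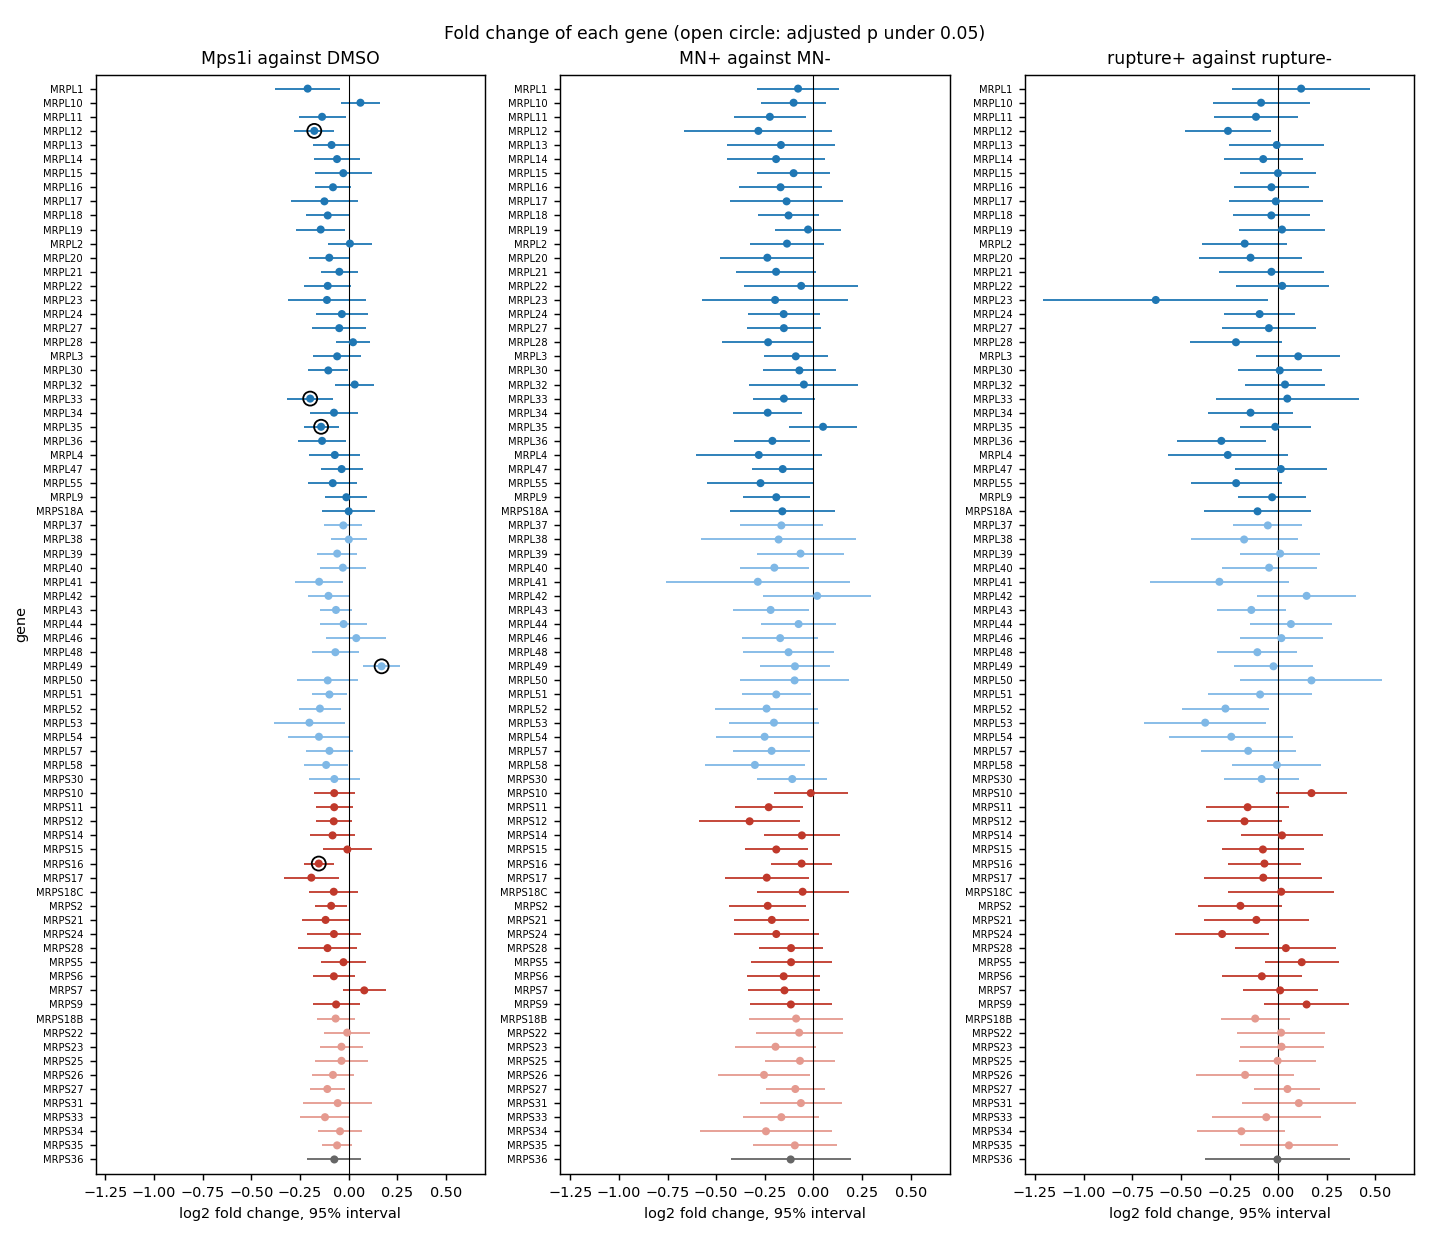
Log2 fold change (point) with its 95% interval (line) for each of the 77 genes in the 3 comparisons, ordered and coloured by role as in the plot of levels; open circles mark an adjusted p under 0.05. Points lie below 0 for 69, 75 and 52 genes, and the 5 open circles are all in the comparison of Mps1i against DMSO.

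Transcript length and GC content moved with this result. The canonical transcripts of the members had a median of 1224 bases, against 3359 over the genes of all 3 tables, and 33.8% of them were under 1000 bases, against 6.15%. In the 200 ms MN- library of experiment 1 the members lay 0.21 above the mean of the table (median, log2 CPM) and the 632 other genes with transcripts under 1000 bases lay 0.22 above it, while in the 200 ms MN+ library of that experiment the values were -0.11 and -0.19. Genes with transcripts over 4000 bases lay at -0.13 and 0.090 in these libraries. With offsets for length and GC content the median of the members was -0.051 with 66 below 0, and that of all genes was -0.0077. Without experiment 1 the median was -0.081, and without the 200 ms MN- library of experiment 1 it was -0.11. The part of length and GC content in the difference beyond these values was not tested.

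**Figure D4:**
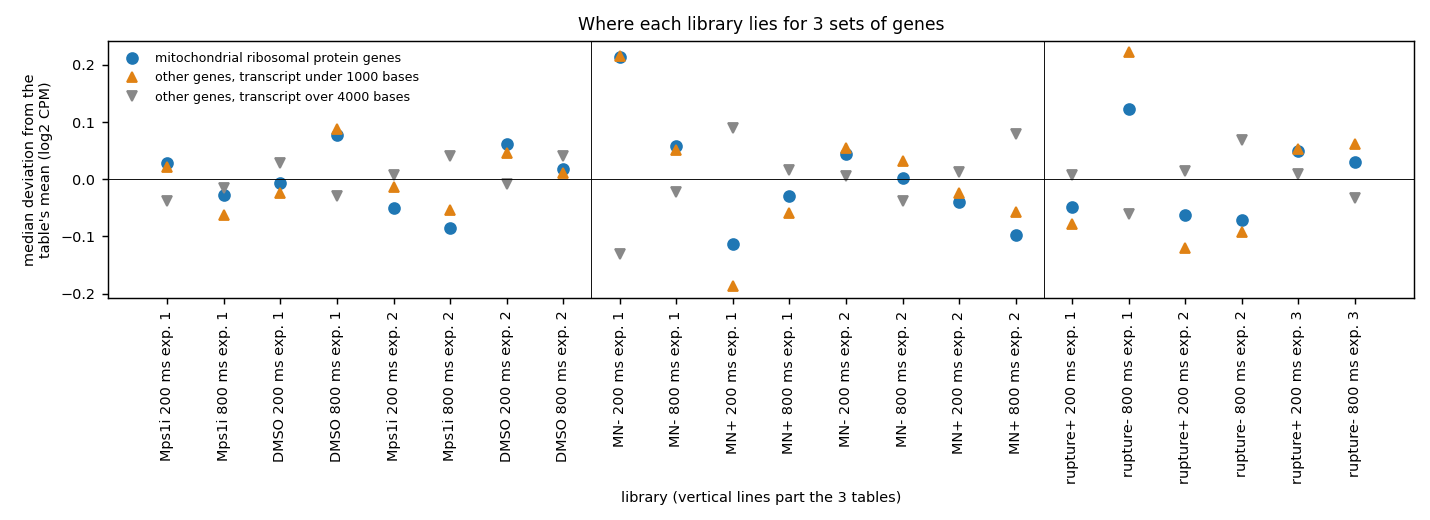
Median deviation of 3 sets of genes from the mean of their table (log2 CPM) in each of the 22 libraries: the members (circles), other genes with transcripts under 1000 bases (upward triangles) and over 4000 bases (downward triangles). The 200 ms MN- library of experiment 1 is highest for the members at 0.21, and circles and upward triangles have the same sign in every library of the MN and rupture tables.

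Among the members, those with GC-rich transcripts had the more negative values. Across the 77 genes, which share libraries and are not independent, the log2 fold change and GC content had Pearson's r = -0.73 in MN+ against MN- and r = -0.79 in rupture+ against rupture-, and r = 0.12 in Mps1i against DMSO. In MN+ against MN- the 26 members of lowest GC content (34.8% to 44.9%) had a median of -0.078, the 25 between them -0.17, and the 26 of highest GC content (52.2% to 66.7%) -0.21. The other genes with transcripts under 1000 bases in the same GC ranges had medians of -0.12, -0.16 and -0.22. Over all genes with a length r was -0.41 for GC content and 0.58 for log2 length in this comparison.

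**Figure D5:**
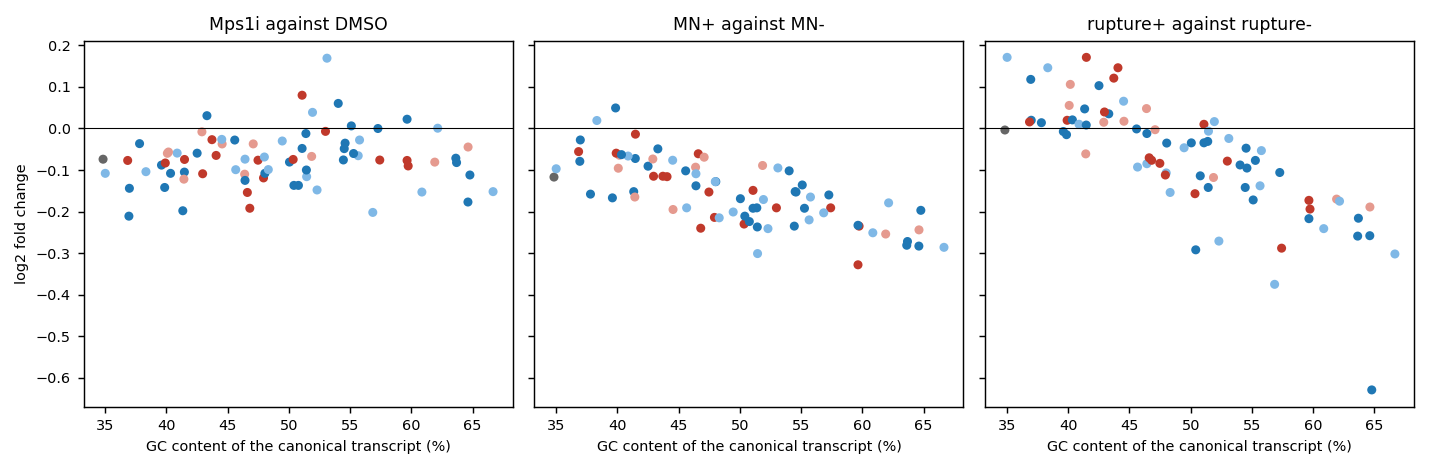
Log2 fold change of the 77 genes against the GC content of the canonical transcript (%) in the 3 comparisons, coloured by role as in the plot of levels. Values are lower at higher GC content in MN+ against MN- (r = -0.73) and in rupture+ against rupture- (r = -0.79), and not in Mps1i against DMSO (r = 0.12).

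The other genes of the pathway gave no call between MN+ and MN- either. Of the 5 subunits with other symbols 4 were below 0 (median -0.23), as were 23 of 27 assembly and rRNA modification genes (median -0.088), 11 of 18 translation factors (median -0.044) and 11 of 13 genes of mitochondrial transcription and RNA processing (median -0.041). The smallest p-values were those of HSD17B10, a subunit of mitochondrial RNase P (-0.24, SE 0.083, adjusted p = 0.641), CHCHD1 (-0.23, SE 0.088, adjusted p = 0.641) and MTERF3 (-0.20, SE 0.076, adjusted p = 0.641). The median SE of the members was 0.094, and the 95% interval lay inside 1.5-fold for 73 members but inside 1.2-fold for only 9. Here too the 4 libraries of each group were taken as independent, though they come from 2 experiments.

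The third comparison asked whether rupture of the micronucleus changes expression. No member passed the test between rupture+ and rupture-, where 0.0317% of all genes did. Of the 77 members 52 were below 0 (67.5%, against 50.6% of all genes), with a median of -0.047 against -0.0022. At an unadjusted p under 0.05 there were 6 members, all lower (7.79%, against 8.95% of all genes), and DESeq2 and limma-voom called none. Groups did not overlap for 13 members (16.9%, against 16.3% of all genes in either direction). Of the 77 members 12 were lower without overlap, as were 6.7% of all genes. Without the rupture- library of experiment 1 the median of the members was 0.0064, and without experiment 1 it was 0.023. In that library the members lay 0.12 and other short transcripts 0.22 above the mean of the table.

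MRPL23, which sits at the exit of the large subunit's tunnel (chromosome 11, 1947278 to 1984522, plus strand), had the most negative value of any member in any comparison. It stood at 44.5, 32.1 and 34.1 CPM in rupture- and at 29.8, 28.5 and 13.3 CPM in rupture+. The groups did not overlap, and the rupture+ library of experiment 3 lay far below the other 2. The log2 fold change was -0.63 (SE 0.26, adjusted p = 0.55), -0.34 without that library and -0.34 with the length and GC offsets. DESeq2 with the experiment as a block, an alternative chosen after seeing the data, called MRPL23 alone of the members (adjusted p = 0.0239).

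MRPL53 (-0.38, SE 0.14), MRPL41 (-0.30, SE 0.16) and MRPL36, homologue of the smallest bacterial large subunit protein (-0.29, SE 0.10), followed, with adjusted p from 0.55 to 0.562. MRPL36 stood at 60.1, 48.9 and 61.3 CPM in rupture- and at 47.3, 47.2 and 44.7 CPM in rupture+, with every rupture+ library below every rupture- library. Above 0 were MRPS10 at 0.17 (SE 0.082, adjusted p = 0.557), MRPL50 at 0.17 (SE 0.16, adjusted p = 0.696), MRPS9 at 0.15 (SE 0.098, adjusted p = 0.607) and MRPL42 at 0.15 (SE 0.12, adjusted p = 0.639).

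The values were lower at higher GC content here as well. The members of lowest GC content had a median of 0.028 with 4 of 26 below 0, those between -0.071 with 22 of 25, and those of highest GC content -0.17 with 26 of 26. The other short transcripts of the same GC ranges had medians of -0.018, -0.081 and -0.20. By role the medians were -0.035 and -0.085 for the large subunit members with and without a bacterial homologue, and -0.074 and 0.0059 for those of the small subunit. Of the other pathway lists no gene was called, and the smallest p-values were those of RBFA, a small subunit assembly factor (-0.35, SE 0.11, adjusted p = 0.55), and GFM2, which recycles ribosomes (0.23, SE 0.078, adjusted p = 0.55). The median SE of the members was 0.10, with 74 intervals inside 1.5-fold and 24 inside 1.2-fold.

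The 3 genes with MRPS18 in their symbols show how the same genes read across the comparisons. MRPS18A, in the large subunit, had log2 fold changes of -0.00015 (SE 0.061), -0.16 (SE 0.12) and -0.11 (SE 0.12) in the order above. MRPS18B was counted with the small subunit members specific to mitochondria, whereas MRPS18A and MRPS18C were counted with members that have a bacterial homologue. The counts and medians by role rest on that choice. MRPS18B had -0.067 (SE 0.045), -0.089 (SE 0.11) and -0.12 (SE 0.080). MRPS18C had -0.077 (SE 0.058), -0.056 (SE 0.11) and 0.016 (SE 0.12). None of the 9 values passed the test, with adjusted p from 0.351 to 1. The head-to-head neighbours MRPL46 and MRPS11 had 0.039 and -0.075, then -0.17 and -0.23, and last 0.017 and -0.16, also with no call.

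The pulse of light used for sorting left no call among the members. Between 800 and 200 ms no member passed in the Mps1i and DMSO table (0% of all genes called, member median -0.014) or in the MN table (0% of all genes called, member median -0.042), and at an unadjusted p under 0.05 there was none in either. DESeq2 called none too. The difference of the inhibitor's effect between experiments 2 and 1 was past the threshold for 0 members, where 0.359% of all genes were called. That of MN+ against MN- was past it for 0 members, where 0.00944% were. An unadjusted p under 0.05 was reached by 7 members in each, all negative for the inhibitor and all positive for MN+ against MN-. For the inhibitor that was 9.09% of the members, against 12.6% of all genes. For MN+ against MN- the share of all genes at that level is not given here, so the 7 members cannot be set against it. DESeq2 called none.

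Between the days of the MN experiments 19 members differed: 6 were higher and 13 lower in experiment 2 than in experiment 1 (34% of all genes called). With the length and GC offsets the balance turned, to 10 higher and 9 lower, and the median of the members went from -0.073 to 0.019. In the Mps1i and DMSO table there were 3 lower and none higher (15.4% of all genes called). Those 3, named after their values were seen, were MRPL15 at -0.19 (SE 0.033, adjusted p = 0.00484), MRPL27 at -0.16 (SE 0.038, adjusted p = 0.0153) and MRPS15 at -0.14 (SE 0.036, adjusted p = 0.024). Between the MN experiments MRPL41 and MRPL12, with GC contents of 66.7% and 64.6%, rose by 0.59 (SE 0.11, adjusted p = 0.00185) and 0.42 (SE 0.10, adjusted p = 0.0105), whereas MRPS18B and MRPS18C had -0.28 (SE 0.055, adjusted p = 0.00311) and -0.27 (SE 0.057, adjusted p = 0.00435). With the length and GC offsets MRPL41 still passed (adjusted p = 0.00386) and MRPS18C did not (adjusted p = 0.954). Across the members r with GC content was 0.66 for this difference.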

How the data were processed

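RNA of sorted RPE1 cells was amplified and sequenced by the authors with the SMART-Seq v4 and Nextera XT kits, which do not keep strand. The deposited tables hold estimated counts per gene as whole numbers, made by the authors with Salmon (1.2 in the submitters' notes, where bcl2fastq 2.20 and hg38 are also named) with GC correction and summed to genes, keeping genes with at least 700 counts in 2 samples. The tables have 22 library columns for 29 deposited samples; 7 columns stand for libraries deposited in parts, and their summing is not given in the sources used here. All 22 columns were matched to a group by their names and labels. Nothing in the labels says that libraries of 1 day came from separate cultures, so the p-values reflect only how far these libraries differ, which may be technical. Libraries held 47919780 to 145242185 counts, and SEs cover the spread between libraries, technical replicates of a day included.

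Each table was fitted alone in edgeR 4.0.16 (R 4.3.3), with TMM scaling, condition as the only term, the quasi-likelihood test (glmQLFit, glmQLFTest) over all genes and Benjamini-Hochberg adjusted p under 0.05 as a call. The study used a likelihood ratio test in DESeq2 and does not name its full model. Such a test (DESeq2 1.42.0), with condition as the only term in the comparisons of conditions, was run as an alternative. Other alternatives were limma-voom (limma 3.58.1), DESeq2 size factors, a minimum count of 2000, offsets for transcript length and GC content, pulse length as a term, summed pulses, and leaving out each library and each experiment. CPM use TMM library sizes, and log2 CPM carry a prior count of 2. SE is the log2 fold change over the root of F. Lengths, GC content and symbols came from GENCODE 44 (GRCh38); 97.2% to 97.6% of genes had a length. Identifiers outside that annotation (224 to 297 genes a table) carry no symbol here. Promoters came from RefSeq (GRCh38.p14). Scripts were tested on simulated data.

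Libraries of 1 experiment share a day in the titles, so the experiment served as the replicate block. Deviations from the group means were correlated between same-day libraries of the 2 groups. The values ran from 0.0279 to 0.38 in the Mps1i and DMSO table and from -0.0133 to 0.659 in the MN table. In the rupture table the 3 pairs gave 0.00951, 0.229 and 0.0381. By the study's methods 2 wells were imaged in turn per MN experiment, with the pulses of MN+ and MN- swapped between them. By that account a 200 ms library of 1 group shared a well with the 800 ms library of the other. No fit used this pairing. Such pairs gave 0.623 and 0.335 in experiment 1 and 0.659 and 0.482 in experiment 2. Pairs of the same pulse gave 0.43 and -0.0133, then 0.509 and 0.366.

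Genes named in the text were, in each comparison, the called members (at most 8 each way, by adjusted p), the 4 most changed each way whatever their p, a fixed list of 20 role genes, and the 3 highest and 3 lowest per length, and up to 3 genes of each of 4 other pathway lists. Members and lists were chosen with earlier results of these data known. Of the members 36 have pseudogenes named for them (79 in all), and 40 have a gene body that overlaps a gene on the other strand. Reads of such a pair cannot be told apart where the transcripts share bases, which was not examined.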

Additional observations from a re-analysis of the deposited data

Results flagged for a closer look

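Of 148 groups of 4 libraries tested, 7 held 1 library far from the others by Dixon's criterion, a share that chance alone gives in about 1 of 20 groups. In the 200 ms Mps1i library of experiment 1, MRPL12 stood at 71.7 CPM where the other Mps1i libraries ran from 63.9 to 65.2, MRPL33 at 82 CPM where they ran from 72.5 to 74, and MRPL58 at 33.6 CPM where they ran from 30.4 to 30.7. In the 800 ms DMSO library of experiment 1 MRPL53 stood at 22.2 CPM, above 18.3 to 18.4 in the rest of its group. In the 800 ms MN- library of experiment 1 MRPL20 stood at 86.5 CPM, below 103 to 107 in the rest. MRPL58 was high at 45 CPM in the 200 ms MN- library of experiment 1 (others 32.4 to 33.8) and low at 26.6 CPM in the 200 ms MN+ library of that experiment (others 29.9 to 30.4).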

How the results depend on the processing

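Of the values of named members under the alternatives, 1959 kept their direction and their side of the threshold, 39 newly passed it, 44 no longer passed, and none changed sign while called. In Mps1i against DMSO 1 member was called higher (6.32% of all genes). That count became 0 without experiment 2 (2.69%), with pulse length as a term (4.69%), and with the pulses summed and a replicate block (4.7%). With 1 library left out it was 0 to 1 (3.58% to 5.89%). The 4 called lower (5.76% of all genes) became 10 with the replicate block (11.8% of all genes). They became 7 with length and GC offsets (8.18%) and 12 with both (16.3%). Without experiment 1 there were 15 (12.4%), and without experiment 2 there were 0 (2.27%). Pulse length as a term gave 2 (4.28%), and the pulses summed and blocked gave 0 (4.04%). With 1 library left out there were 0 to 3 (3.2% to 5.63%). In MN+ against MN- 12 members were called lower with the pulses summed and blocked (3.37% of all genes), against 0. In alternatives added after seeing the data, DESeq2 with the replicate block called 11 lower in Mps1i against DMSO (14.2% of all genes) and 1 in rupture+ against rupture- (0.243%). Also added then, the medians of the members ran from -0.098 to -0.040 for Mps1i, from -0.22 to -0.051 for MN+ and from -0.095 to 0.023 for rupture+. The cause of these shifts was not tested. The block changed no other count of calls between conditions.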
